A study of Mus musculus with 2 samples.

Results

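Esrrb, Nr5a2, Nr0b1, Tfcp2l1, Tbx3 and Prdm14 are 6 genes of the transcription factor network of naive mouse embryonic stem cells. They were taken by name, and all 6 were found among the 20576 protein-coding genes analysed. For each gene the peaks over the gene body and the 10 kb on either side were read on mm10, and the regions at each annotated transcription start site (TSS) on mm9. The mark measured was histone H3 trimethylated at lysine 4 (H3K4me3), by chromatin immunoprecipitation followed by sequencing (ChIP-seq). The cells were E14TG2a.4, an embryonic stem cell line from a male mouse of the 129/Ola strain, and the 2 biological replicates form 1 group with no treatment or genotype to compare. All values therefore describe untreated cells of 1 line, and no test between groups was possible.

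H3K4me3 is laid down at transcription start sites and is known from active promoters and from promoters held poised. It usually forms a narrow peak at the start of a gene, while some genes of cell identity carry the mark over many kilobases. In the naive state, Esrrb, Nr5a2 and Tfcp2l1 act as transcription factors that hold self-renewal, Nr0b1 (also called Dax1) is a nuclear receptor corepressor without a usual DNA-binding domain, Tbx3 is a T-box factor, and Prdm14 is a PR domain protein known for repressing FGF signalling and DNA methylation genes. A gene can have several start sites, so a marked start can lie far inside the longest annotated gene.

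In these cells all 6 genes carried H3K4me3 at one or more annotated starts, but the 5′-most start base of Esrrb and Nr5a2 lay outside every peak and region. Within 1 kb of it, some lists had a weak peak at Esrrb (mm10) or a region at Nr5a2 (mm9). On mm10 the strongest signal of Esrrb and Nr5a2 lay 109 kb and 8.1 kb inside the gene. Tbx3 carried its strongest signal in 2 of its 5 domains, one at its 5′ end and one across its 3′ part. Tfcp2l1 had a strong peak at its start and a weaker, wide domain inside the gene. Nr0b1 and Prdm14 had a single domain each at the start, with Prdm14 the weakest of the 6 on mm10.

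The sequences around the starts of Esrrb, Nr5a2 and Tfcp2l1 are shown so that marked and unmarked starts of one gene can be set side by side. Each runs 5′ to 3′ on the gene's strand, with 250 bases before the start and 50 from it on, and capitals mark CpG dinucleotides. Those on mm10 are from RefSeq (GRCm38.p6) and the third Esrrb start was read from the mm9 genome at a GENCODE vM1 start. The Esrrb windows are chr12:86360867-86361166 and chr12:86421394-86421693 (mm10) and chr12:87810817-87811116 (mm9), all on the plus strand.
Esrrb, 5′-most start: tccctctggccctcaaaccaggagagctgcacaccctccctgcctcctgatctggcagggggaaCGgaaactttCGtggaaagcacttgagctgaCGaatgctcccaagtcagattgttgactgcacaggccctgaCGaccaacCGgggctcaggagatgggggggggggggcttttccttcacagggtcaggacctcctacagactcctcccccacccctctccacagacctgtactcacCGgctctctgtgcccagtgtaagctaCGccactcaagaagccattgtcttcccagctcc
Esrrb, start at 60.5 kb: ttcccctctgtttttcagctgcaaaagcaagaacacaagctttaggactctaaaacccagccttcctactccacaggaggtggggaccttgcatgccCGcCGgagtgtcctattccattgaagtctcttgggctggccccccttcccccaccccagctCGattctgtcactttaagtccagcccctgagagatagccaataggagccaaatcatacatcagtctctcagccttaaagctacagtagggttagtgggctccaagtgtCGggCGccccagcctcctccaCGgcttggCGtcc
Esrrb, start at 109 kb: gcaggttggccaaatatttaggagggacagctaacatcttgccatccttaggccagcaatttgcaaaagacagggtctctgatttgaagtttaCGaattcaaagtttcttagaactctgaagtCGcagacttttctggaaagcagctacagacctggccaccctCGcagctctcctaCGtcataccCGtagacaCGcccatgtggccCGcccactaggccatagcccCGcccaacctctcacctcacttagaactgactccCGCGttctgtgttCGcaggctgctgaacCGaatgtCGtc
The Nr5a2 windows are chr1:136960399-136960698 and chr1:136953581-136953880 on the minus strand, and the Tfcp2l1 window is chr1:118627695-118627994 on the plus strand (mm10).
Nr5a2, 5′-most start: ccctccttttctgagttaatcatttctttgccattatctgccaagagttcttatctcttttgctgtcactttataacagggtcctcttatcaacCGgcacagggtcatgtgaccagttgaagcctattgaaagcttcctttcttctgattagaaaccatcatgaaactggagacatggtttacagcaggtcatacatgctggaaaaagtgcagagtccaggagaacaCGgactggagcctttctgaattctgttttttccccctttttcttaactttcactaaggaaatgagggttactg
Nr5a2, start at 6.8 kb: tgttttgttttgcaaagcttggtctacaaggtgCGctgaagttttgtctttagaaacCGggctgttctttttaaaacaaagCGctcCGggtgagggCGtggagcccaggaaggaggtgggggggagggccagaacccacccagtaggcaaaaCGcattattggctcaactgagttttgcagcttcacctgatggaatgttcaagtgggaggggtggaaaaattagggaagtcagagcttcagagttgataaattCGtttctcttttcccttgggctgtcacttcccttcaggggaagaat
Tfcp2l1, start: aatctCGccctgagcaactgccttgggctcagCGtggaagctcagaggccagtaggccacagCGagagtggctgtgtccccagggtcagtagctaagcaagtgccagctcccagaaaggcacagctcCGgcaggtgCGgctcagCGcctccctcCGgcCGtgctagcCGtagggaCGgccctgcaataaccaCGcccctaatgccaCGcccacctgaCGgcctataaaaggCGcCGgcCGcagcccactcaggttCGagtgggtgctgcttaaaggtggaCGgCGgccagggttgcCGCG
The Nr5a2 window at the 5′-most start held 2 CpGs and that at 6.8 kb held 7, which is also the median of the 32851 mouse promoters in the RefSeq table. The Tfcp2l1 window held 21. The Esrrb windows held 7 at the 5′ end, 7 at 60.5 kb and 13 at 109 kb, so in 300 bases the first 2 Esrrb starts did not differ in CpG number. A further vM1 start of Esrrb at 60.8 kb had 37 CpGs in its window.

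Esrrb encodes an orphan nuclear receptor of the estrogen-related receptor family and spans chr12:86361117-86521628 on mm10, plus strand, 160512 bp. Over the gene and its flanks the replicated list held 23 peaks, with 42 in replicate 1 and 40 in replicate 2. The strongest peak had a signal, the authors' ratio of ChIP over control for a peak, of 59.2 in replicate 1 and 63.2 in replicate 2 (61.2 ± 2.83, SD, n = 2). In the replicated list, whose signal values are those of the pooled replicates, it was 69.4, which is above 90.8% of the 16451 genes with a peak over the gene or its flanks. Its summit lay 109265 bp inside the gene in replicate 1 and 109264 bp in replicate 2, next to the vM1 start at 109000 bp (transcript Esrrb-005). The replicates therefore placed the summit at the same site.

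The Esrrb start at 60.5 kb, shared by 3 vM1 transcripts, had the next strongest peak, with 17.4 in replicate 1 and 16.1 in replicate 2. The peak at 109 kb was higher than that at 60.5 kb by 3.41 times in replicate 1 and 3.94 times in replicate 2 (3.67 ± 0.37, SD, n = 2). A further domain at 140.8 to 149.1 kb reached 17.1 in replicate 1 and 15.4 in replicate 2, about the level of the 60.5 kb peak, with a ratio of 0.97 ± 0.02 (SD, n = 2). It holds the vM1 start of a processed transcript, Esrrb-004. At the 5′-most start no peak of the replicated list or of replicate 1 lay within 1 kb, while replicate 2 had one of 2.85 and the pooled list one of 2.44. Neither covered the start base. The lncRNA Gm40483 overlaps this 5′ end, so a weak peak there cannot be given to one of the genes.

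Neighbouring peaks with gaps under 1 kb are counted together as a domain. The widest Esrrb domain ran from 101.84 to 139.76 kb inside the gene and measured 37920 bp in the replicated list, the third widest of all genes, with 45347 bp in replicate 1 and 36750 bp in replicate 2. A single peak of 25468 bp formed most of it in the replicated list, and the largest Esrrb peak was narrower in each replicate. In all, peaks covered 57557 bp at Esrrb, rank 7 of all genes, with 52882 bp in replicate 1 and 51751 bp in replicate 2. Of the 37200 bp of the matching pooled mm9 region, 36644 bp were intronic and 556 bp exonic by vM1. Between 4.2 and 80.2 kb lay further small peaks, none of them above 5.75 except that at 60.5 kb.

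**Figure D1:**
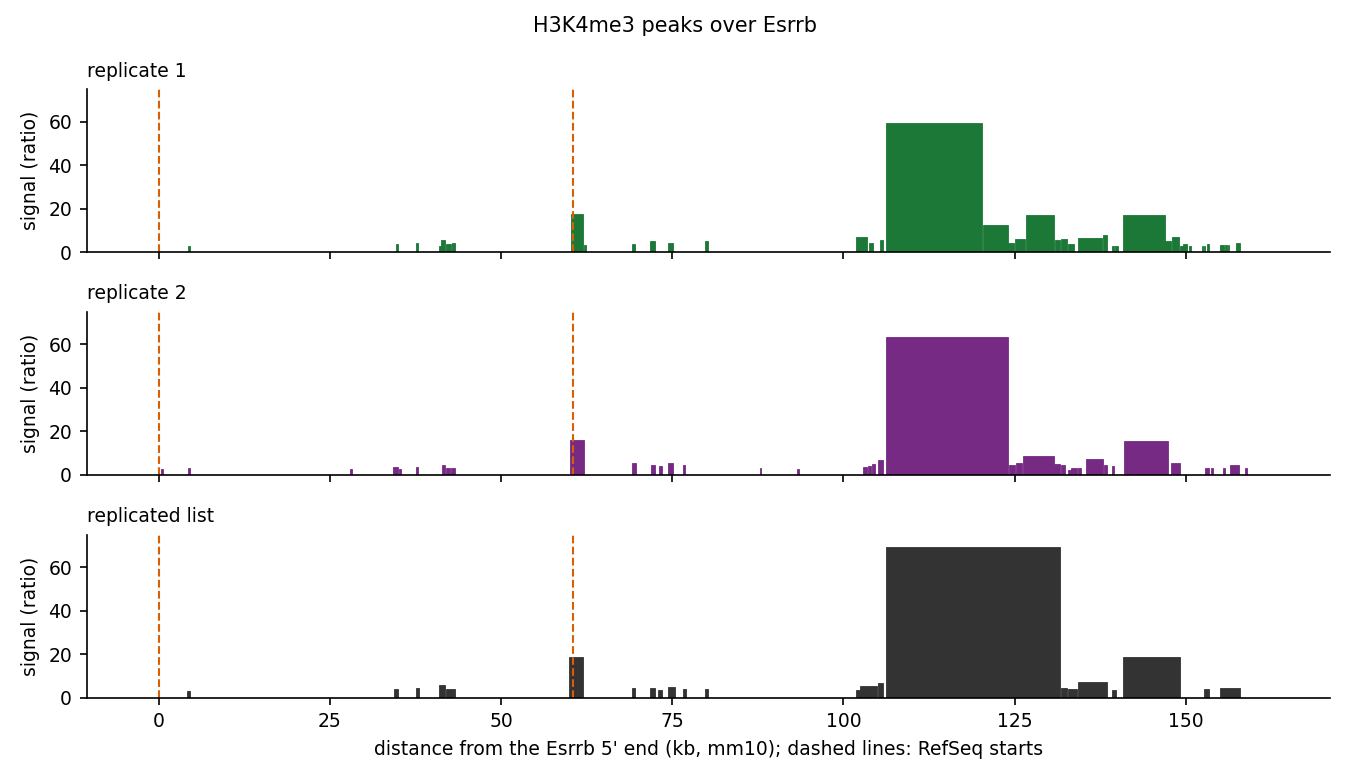
Each box is an H3K4me3 peak over Esrrb in replicate 1, replicate 2 and the replicated list; the x axis is the distance from the 5′ end in kb, the box height is the signal of the whole peak (ratio of ChIP over control), not a profile, and dashed lines are the 2 RefSeq starts. The start at 0 has no tall peak, the start at 60.5 kb has one of 18.8 in the replicated list, and the widest and tallest box, 69.4, begins at 106.16 kb.

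The mm9 lists gave the same marked starts of Esrrb but not the same order of signal. Of its 5 distinct vM1 starts, 4 had a region within 1 kb in the pooled list and in both replicates, and the 5′-most had none in any of the 3 lists. The region at 60.5 and 60.8 kb had a signal of 11.4 in replicate 1 and 7.02 in replicate 2. That at 109 kb had 10.2 in replicate 1 and 10.1 in replicate 2, inside the range of the 60.5 kb region. The mm9 signal is given once for a whole region, and the region at 109 kb was 37200 bp wide in replicate 1 against 2600 bp at 60.5 kb. The gene has the same length in both builds, so distances from the 5′ end are set side by side here, with no coordinate moved between builds.

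Nr5a2 (Lrh1), an orphan nuclear receptor that binds as a monomer, spans chr1:136842562-136960448 on mm10, minus strand, 117887 bp. RefSeq gives it a 5′-most start and a second one 6818 bp inside. No peak lay within 1 kb of the 5′-most start in any of the 4 mm10 lists. The second start lay in a peak of 33.4 in replicate 1 and 40.9 in replicate 2 (37.2 ± 5.34, SD, n = 2), and of 45.1 in the replicated list. Relative to its mean, this was the largest spread of the highest peak among the 6 genes. The domain there ran from 5.83 to 14.64 kb and measured 8815 bp, with 9087 bp in replicate 1 and 10113 bp in replicate 2.

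A smaller Nr5a2 domain lay between the 2 starts, from 1.14 to 3.55 kb, with a highest peak of 12.7 in replicate 1 and 13.0 in replicate 2. The peak at the second start was 2.62 times as high in replicate 1 and 3.16 times in replicate 2. With a window of 2 kb the smaller domain would mark the 5′-most start, so that call depends on the window. On mm9 the pooled region next to the 5′-most start began 604 bp downstream of it with a signal of 6.26. In replicate 2 it began 804 bp downstream, and in replicate 1 its edge lay 1204 bp away, outside the window. The second start lay inside a region of 14.4 in replicate 1 and 13.6 in replicate 2.

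Over all 12424 genes with 2 or more vM1 starts, the 5′-most start base lay outside and another start base inside a pooled mm9 region for 5.54%. Of the 3 network genes with several starts, Esrrb and Nr5a2 were of this kind and Tbx3 was not. By the 1 kb rule on mm10, 4 of the 6 genes were marked at the 5′ end, against 68.4% of all genes. A peak over the body or flanks was present at all 6, against 80.0% of all genes. On mm9 all 6 had a region at one or more vM1 starts, against 72.6% of all genes. With so few genes, 4 of 6 is near the share of all genes.

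Of the 16 vM1 starts of the 6 genes, 15 had a region within 1 kb in the pooled mm9 list, against 66.5% of all 68071 starts. The start base itself lay in a region for 14 of them, against 62.8%. The 16 starts are not independent: Tbx3 gave 6 of them, and neighbouring starts of Tbx3 and of Esrrb shared regions. Starts were also classed by CpG content as high, intermediate or low, and over all starts 99.6% of the high, 81.7% of the intermediate and 28.9% of the low class were marked. The 5′-most starts of Esrrb and Nr5a2 were both of the low class, with an observed-to-expected CpG ratio of 0.41 and 0.19. Low CpG content did not go with an unmarked start in every case: the Esrrb start at 143.3 kb (0.29) and the Tbx3 start at 9.6 kb (0.41) were of the low class and lay inside regions. The region at this Tbx3 start also held the start of the high class at 10.1 kb. By the 1 kb rule the 5′-most Nr5a2 start also counted as marked in the pooled list, although its base lay outside the region.

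**Figure D2:**
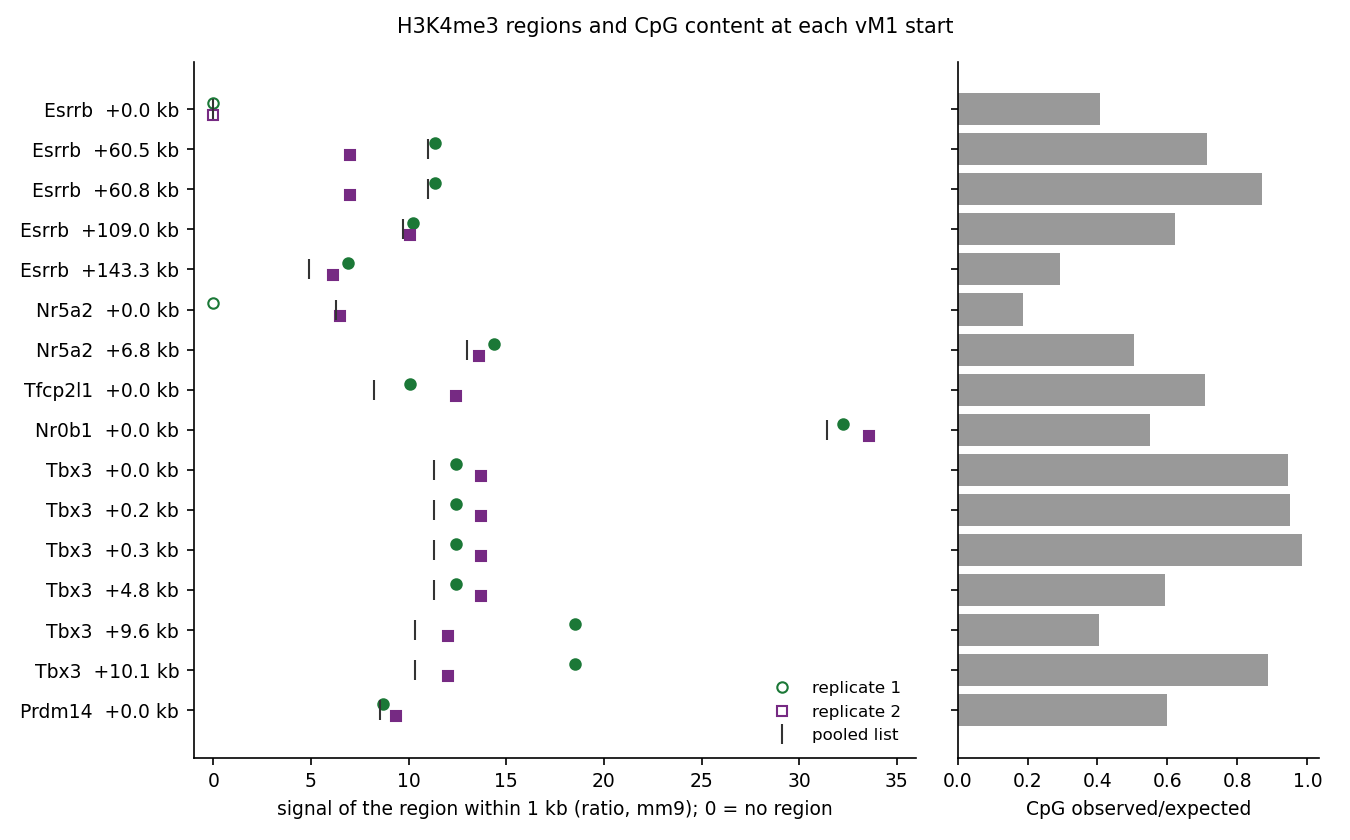
Left, the signal (ratio) of the mm9 region within 1 kb of each of the 16 vM1 starts, by gene and distance from the 5′-most start, in replicate 1, replicate 2 and the pooled list, with open symbols at 0 for no region; right, the observed-to-expected CpG ratio of each start. The 5′-most Esrrb start is at 0 in all 3 lists, that of Nr5a2 is at 0 in replicate 1, and Nr0b1 lies above the rest at 31.4 in the pooled list.

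Tfcp2l1, a grainyhead-like factor known as a target of LIF and STAT3 signalling, spans chr1:118627923-118685168 on mm10, plus strand, 57246 bp. Its start peak had a signal of 57.5 in replicate 1 and 54.7 in replicate 2 (56.1 ± 2.01, SD, n = 2), and of 63.6 in the replicated list, above 81.2% of genes with a peak. The peak at the start was 4163 bp wide and the domain around it 7646 bp, with 9563 bp in replicate 1 and 7501 bp in replicate 2. A second domain lay inside the gene at 14.73 to 25.19 kb, 10458 bp wide, with a highest peak of only 8.81 in replicate 1 and 8.55 in replicate 2. The start peak was 6.53 times as high as this in replicate 1 and 6.39 times in replicate 2. The gene's place among the wide domains therefore came from a weak internal domain in the replicated list and in replicate 2, and from the start domain in replicate 1, where the internal domain was split and its larger piece was 7962 bp.

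On mm9 the Tfcp2l1 start region had a signal of 10.1 in replicate 1 and 12.4 in replicate 2, and regions inside the gene were called there too, between 13479 and 25078 bp in replicate 1 and between 13679 and 25678 bp in replicate 2. No annotated start of Tfcp2l1 lies in this interval in either annotation used.

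Nr0b1, the corepressor, lies on the X chromosome, present once in these male cells, at chrX:86191775-86195947 on mm10, plus strand, and is only 4173 bp long. Its signal was 28.4 in replicate 1 and 25.9 in replicate 2 (27.1 ± 1.75, SD, n = 2) and 30.3 in the replicated list. The domain covered most of the gene, from -674 to 3902 bp from the 5′ end, and was 4577 bp wide, with 4444 bp in replicate 1 and 4170 bp in replicate 2. Its width was above 77.0% of genes with a peak, while its signal was above only 29.7%. On mm9 the Nr0b1 region had the highest signal of the 6 genes, with 32.2 in replicate 1 and 33.6 in replicate 2, in a region of 4600 bp in both.

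Tbx3 spans chr5:119670534-119684724 on mm10, plus strand, 14191 bp. Its 5′ domain ran from -2.4 to 5.47 kb from the gene's 5′ end, with a peak of 22.0 in replicate 1 and 21.2 in replicate 2. A second domain ran from 9.58 to 17.52 kb, past the 3′ end of the gene, with 28.9 in replicate 1 and 26.2 in replicate 2. The second domain had the higher peak, by 1.31 times in replicate 1 and 1.23 times in replicate 2 (1.27 ± 0.06, SD, n = 2). A weaker domain of 3645 bp lay upstream, from -9.99 to -6.35 kb, with 7.54 in the replicated list and 8.32 in replicate 1, and in replicate 2 it was split into 2 peaks of 4.96 and 4.66. The other 2 domains were under 1 kb wide, with 3.02 and 3.10. The 5′ domain and the second domain were about equal in width, 7870 and 7947 bp, and together with smaller peaks they covered 18598 bp, above 97.7% of genes with a peak. Neighbouring genes limit what can be given to Tbx3: the start of the antisense lncRNA Tbx3os1 lies inside the 5′ domain, and the lncRNA Tbx3os2, which lies 14554 to 20684 bp from the Tbx3 5′ end, overlaps the second domain.

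Tbx3 had the most vM1 starts, 6, and all 6 lay in regions. The first 4, from 0 to 4.8 kb, shared a region of 12.4 in replicate 1 and 13.7 in replicate 2. The starts at 9.6 and 10.1 kb shared a region of 18.5 in replicate 1 and 12.0 in replicate 2. On mm9 the second region was thus higher than the first in replicate 1 and lower in replicate 2. The second region was 4400 bp wide in replicate 1 and 8400 bp in replicate 2, with 1 signal given for each whole region. These mm9 values therefore do not compare the replicates over the same bases. On mm10 the second domain had the higher peak in both replicates. Of the later starts, that at 10.1 kb was of the high CpG class.

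Prdm14 spans chr1:13113428-13127163 on mm10, minus strand, 13736 bp. Its peak of 11.7 in replicate 1 and 12.4 in replicate 2 (12.1 ± 0.49, SD, n = 2) was above only 11.7% of genes with a peak, while its domain of 5111 bp was above 81.2%. The domain ran from -1.76 to 3.35 kb from the 5′ end, with 4725 bp in replicate 1 and 4656 bp in replicate 2. The summit lay 1062 bp inside the gene in replicate 1 and 1813 bp in replicate 2, less closely placed than that of Esrrb. A separate peak of 9.68 in replicate 1 and 10.4 in replicate 2 lay 21.24 to 24.18 kb from the 5′ end, beyond the 3′ end, where the lncRNA Gm39592 is annotated. On mm9 the Prdm14 start had a region of 8.71 in replicate 1 and 9.35 in replicate 2.

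**Figure D3:**
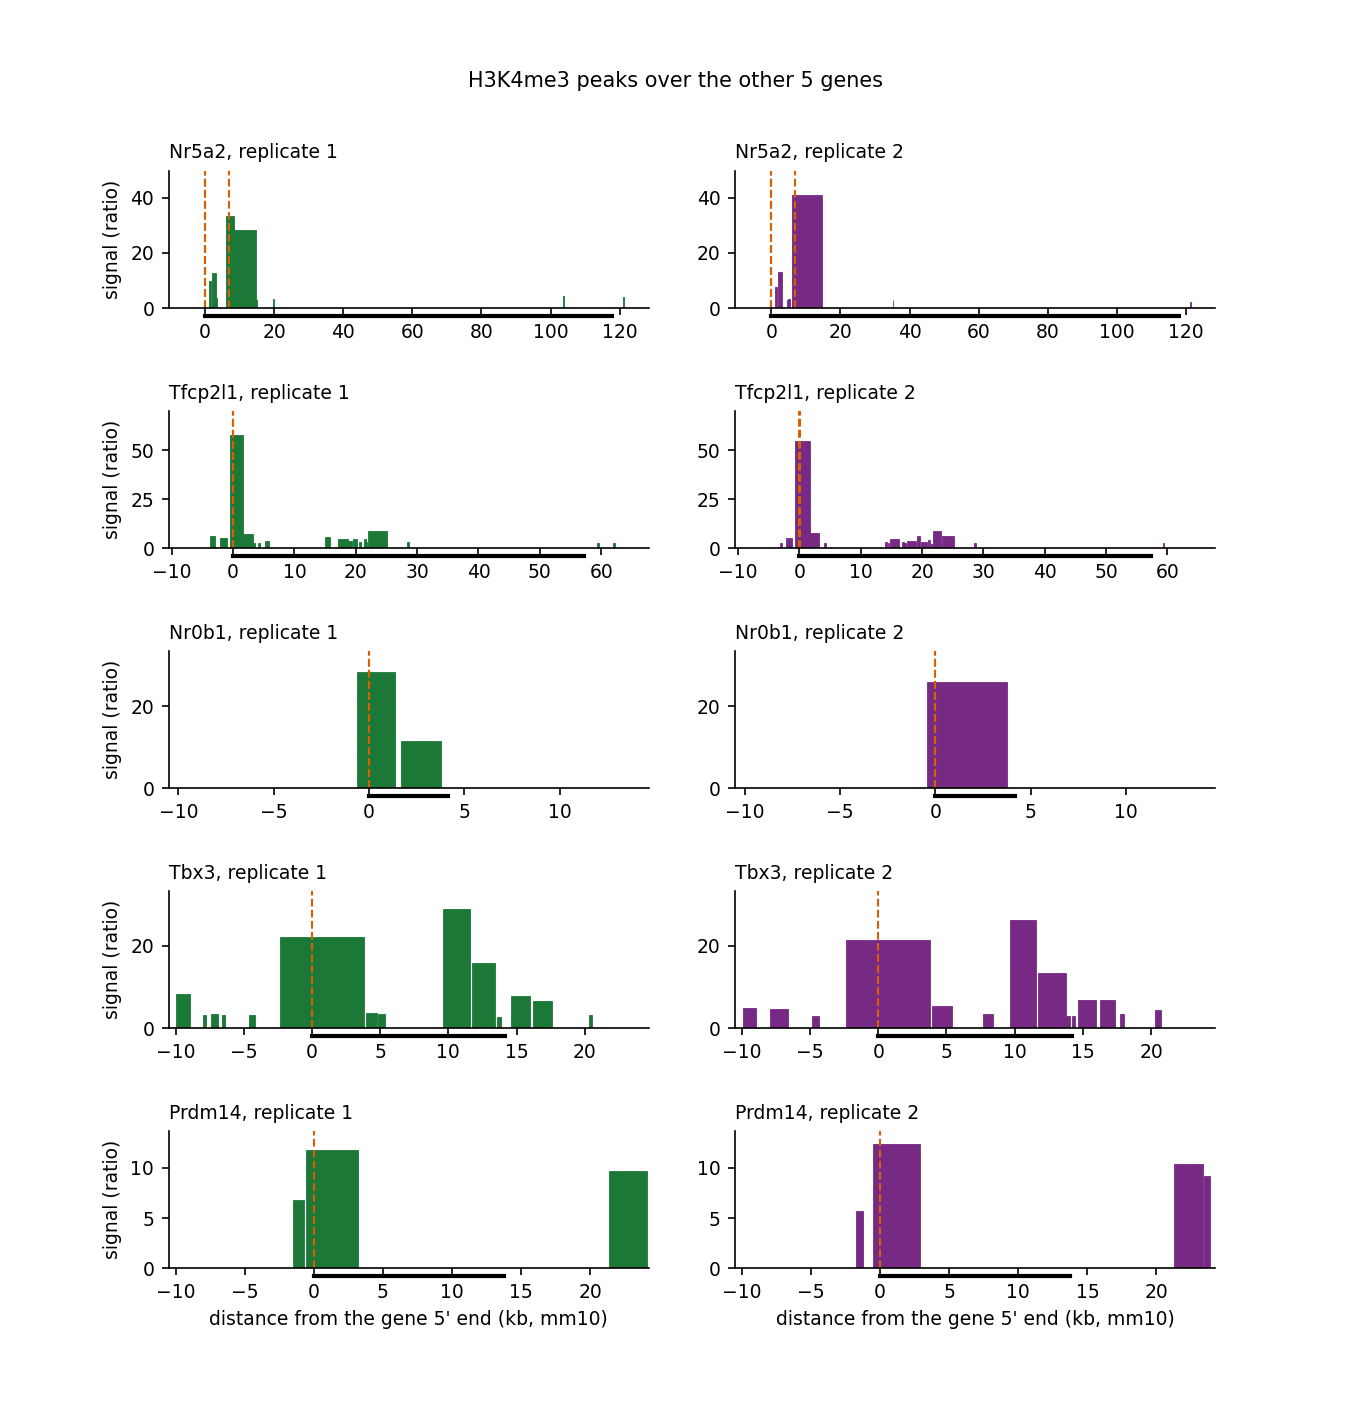
Each box is an H3K4me3 peak over Nr5a2, Tfcp2l1, Nr0b1, Tbx3 or Prdm14 in replicate 1 (left) and replicate 2 (right), plotted by distance from the gene's 5′ end in kb, with the signal (ratio) as height on a scale that differs between genes; dashed lines are the 5′ end and RefSeq starts, and the black bar is the gene. Nr5a2 has its tall boxes at the second start, 6.8 kb, and Tbx3 has 2 groups of tall boxes.

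Ordered by the highest signal on mm10, the genes ran Esrrb, Tfcp2l1, Nr5a2, Nr0b1, Tbx3 and Prdm14. Nr0b1 and Tbx3 could not be ordered, since their replicate values overlapped, while each of the other neighbours in this order had replicate ranges that did not overlap. By the pooled mm9 lists at the starts the order was Nr0b1 at 31.4, Nr5a2 at 13.0, Tbx3 at 11.3, Esrrb at 11.0, Prdm14 at 8.52 and Tfcp2l1 at 8.23. The replicate values of Nr0b1 lay above those of every other start. For Tfcp2l1 the pooled value lay below both replicates, 10.1 and 12.4, in a region of 10200 bp in the pooled list against 7400 and 7200 bp, and in the replicates Prdm14 was the lowest of the 6. The order of signal between these genes thus differed between the mm10 and mm9 lists, and the sources used here do not state what the mm9 ratio is taken over.

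**Figure D4:**
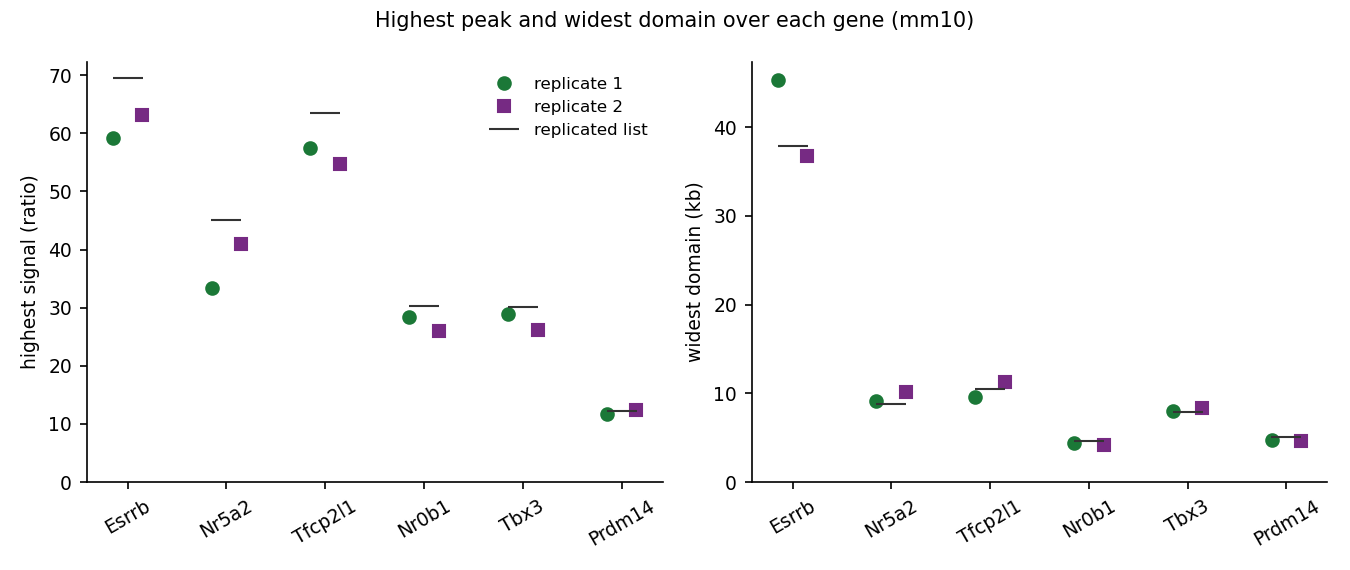
Highest signal (left, ratio) and widest domain (right, kb) over each of the 6 genes on mm10, with circles for replicate 1, squares for replicate 2 and a line for the replicated list. The replicate values of Nr0b1 and Tbx3 overlap in signal, and Esrrb stands above the rest in width at 45.3 and 36.8 kb.

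Width set these genes apart from the median gene more than signal did. Their median widest domain was 8381 bp, against 2738 bp over all genes with a peak, while their median highest signal was 37.7 against 46.2. Esrrb, Tfcp2l1 and Nr5a2 were among the widest 5% (over 8415 bp), a class that holds 5.01% of all genes by its construction. Tbx3, at 7947 bp, and Prdm14 lay below that threshold, and Nr5a2, at 8815 bp, just above it. Esrrb and Nr5a2 are also the longest of the 6 genes, and the part of gene length in these widths was not tested. The replicates placed the mark in much the same bases: of all bases that either replicate covered at the 6 genes, 75.1% were covered in both, from 67.2% at Tfcp2l1 to 87.1% at Nr0b1. Of the 55 peaks of the replicated list, 48 overlapped a peak in both replicates.

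**Figure D5:**
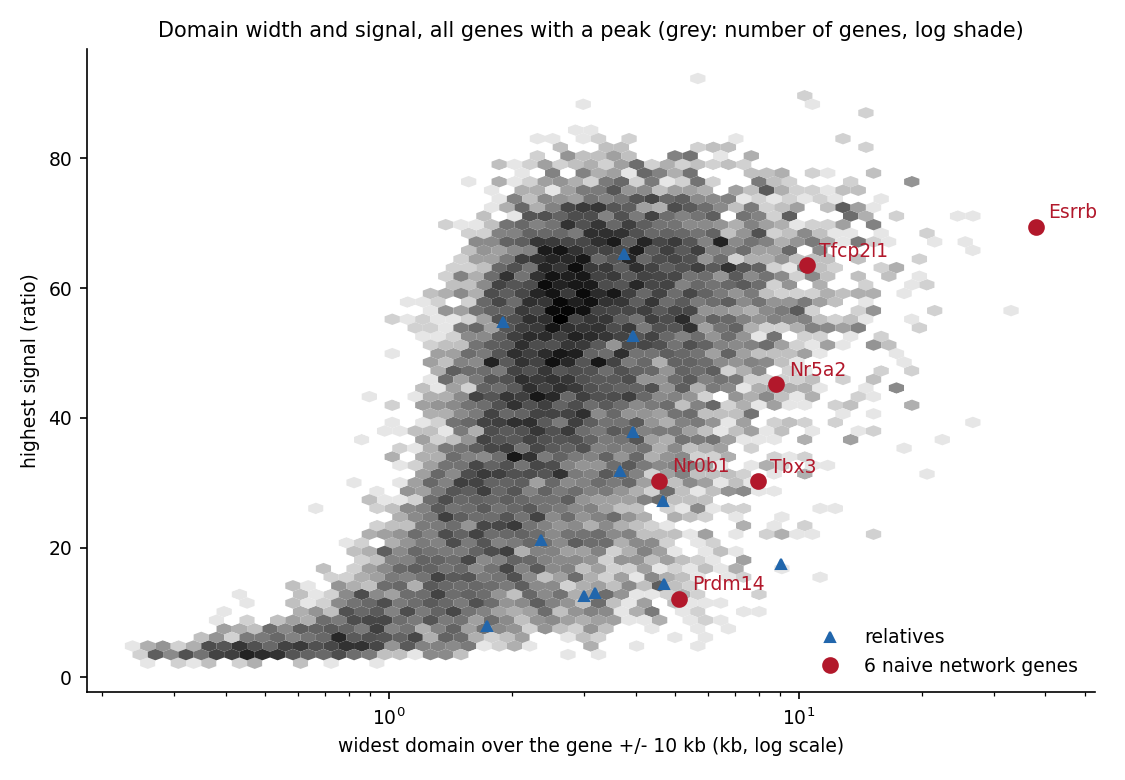
Widest domain over the gene and its flanks (kb, log axis) against highest signal (ratio) for all genes with a peak in the replicated list, with grey shade for the number of genes on a log scale, the 6 network genes as labelled circles and their 12 relatives as triangles. Esrrb lies at the right edge at 37.9 kb and 69.4, and Prdm14 lies low at 12.1.

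A set of 12 relatives of the 6 genes gives a comparison within each family. In the replicated list the network gene had a wider domain than every listed relative in 5 of 6 families, all but that of Prdm14, and a higher peak in 4 of 6. By the signal at the 5′ end it was above every listed relative in 3 of 6 families, and in 2 of 6 in replicate 1. In replicate 1 the count for width was also 5, but with Prdm14 in and Nr0b1 out. Esrrb at 69.4 and 37920 bp stood beside Esrra at 37.8 and 3940 bp and Esrrg at 12.5 and 2999 bp. At the 5′ end Esrrb had no peak in the replicated list, against 32.1 at Esrra and 7.48 at Esrrg. Nr5a2 stood beside Nr5a1, the steroidogenic factor gene, at 14.4 and 4704 bp, and neither had a peak at its 5′ end in the replicated list. Tfcp2l1 was close in signal to the broadly expressed Tfcp2 at 54.8 and Ubp1 at 52.6, but those had domains of 1899 and 3954 bp.

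Tbx3 at 30.2 stood beside Tbx2 at 27.2, Tbx4 at 13.1 and Tbx5 at 7.91, the last with no peak at its 5′ end in the replicated list. Prdm14 at 12.1 was below Prdm1 at 31.9, Prdm13 at 21.1 and Prdm16 at 17.5. Nr0b2 had a peak of 65.3 within its flanks, but its own 5′ end carried only 8.34, below the 30.3 of Nr0b1. Of the 12 relatives, 10 were marked at the 5′ end, against 68.4% of all genes. All 12 had a region at a vM1 start in the pooled mm9 list, against 72.6% of all genes. Among the widest 5% was 1, Prdm16, with 9043 bp in the replicated list but 3923 bp in replicate 1 and 8984 bp in replicate 2.

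Of the partner factors of the network, all 12 listed were marked at the 5′ end, against 68.4% of all genes. Of these 12, 7 were among the widest 5%, a class of 5.01% of all genes. Sox2 with 27074 bp and Zfp42 with 16951 bp were the widest, and Pou5f1 at 69.4 and Klf5 at 69.0 the highest. Pou5f1 and Sox2 encode core pluripotency factors, Zfp42 (Rex1) is a marker of the naive state and Klf5 a Krüppel-like factor. Esrrb, at 37920 bp, was wider than any of them. On mm9, 11 of the 12 had a region at a start. Nanog had none recorded, although its mm10 5′ end had a peak of 23.9 in replicate 1 and 47.9 in replicate 2. Of the 20576 genes, 20550 had a vM1 start assigned, and a gene without one also counts as having no region. Whether this holds for Nanog was not checked, so an absent mm9 region cannot be told from a missing start.

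Of the 8 listed inputs from LIF and WNT signalling, 7 were marked at the 5′ end, against 68.4% of all genes, and 1 was among the widest 5%. Stat3 at 71.6 and Gsk3b at 68.4 had the highest peaks, and Gsk3a with 9562 bp and Tcf7l1 with 7109 bp the widest domains. Lifr, the LIF receptor gene, had no peak at its 5′ end but one of 56.7 over the gene or its flanks. Of the 8 cofactors and targets, 7 were marked, against the same share of all genes, and 3 were among the widest 5%. Tet1, a 5-methylcytosine dioxygenase, with 33904 bp (26192 and 40662 bp in the replicates) and Tet2 with 11246 bp (7487 and 7573 bp) were the widest, and Cbfa2t2, a corepressor known as a partner of PRDM14, at 66.6 the highest, followed by Ncoa3, a coactivator of ESRRB, and Dnmt3b at 63.7 each. Dnmt3a had no peak at its 5′ end and one of 30.3 elsewhere over the gene or its flanks. On mm9 all 8 genes of each of these 2 lists had a region at a vM1 start in the pooled list, against 72.6% of all genes. Its signal was 11.6 at Lifr and 32.8 at Dnmt3a, so both had a marked annotated start.

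The labelled cell type was checked against marker genes. All 8 embryonic stem cell markers were marked at the 5′ end, against 4 of 8 fibroblast markers and 5 of 8 primitive endoderm markers. Of all genes 68.4% were marked there, and 5 of 8 is near that share. The median highest signal over the gene and its flanks was 59.7, 8.20 and 18.3 in that order. It is not a level at the start: Cubn had no peak at its 5′ end but one of 34.1 in this window. Sox17 had 9.49 at its 5′ end and 32.4 in the window. The stem cell markers Pou5f1, Sox2, Nanog and Zfp42 are also among the network partners above. No peak was found over the fibroblast genes Postn, Dcn and Lum, while Thy1 (23.4), Col1a1 (15.7), Col1a2 (13.7), Pdgfrb (12.4) and Col3a1 (4.03) had peaks. H3K4me3 is also known from poised genes of other lineages in such cells, and the part of other cells in the marks at these genes was not tested.

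A set of 8 short motifs was searched on both strands in the windows of the Esrrb, Nr5a2, Nr0b1 and Tfcp2l1 starts, the printed ones included, and not at Tbx3 or Prdm14. The KLF motif GGGCGTGG was the only one found: at -61 and -47 from the Tfcp2l1 start on the minus strand, and at -157 from the second Nr5a2 start on the plus strand, counted to the first base of the match along the gene. It is present in 5.33% of the RefSeq promoters of the same length. The motifs TCAAGGTCA (0.42%), TCAAGGCCA (0.59%), AAGGTCA (4.72%, contained in the first), ATTTGCAT (1.74%), TTCCNGGAA (1.15%), AGGTGTGA (1.28%) and GGTCTCTAA (0.26%) were not in these windows. A match describes these letters only.

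Among 16424 genes with a peak in both replicates, the genes most like each network gene in width, signal and covered length over the 2 replicates were found by distance over 6 scaled values. Esrrb had no near neighbour: Myo10 lay at 0.89 and Mllt6 at 1.04, while the closest gene to each of the other 5 lay at 0.20 to 0.23. Those were Tfap2c for Nr5a2, Atf3 for Nr0b1, Mlec for Tfcp2l1, Pak4 for Tbx3 and Myo1f for Prdm14. The second were Rps6kb2, Epha7, Tcf19, Rapgef1 and Oas2, at 0.29, 0.23, 0.22, 0.51 and 0.30. Tcf19 had the same widest domain, 10355 bp, and the same highest signal, 69.4, as Pou5f1, against 27.2 at its own 5′ end. Its likeness to Tfcp2l1 thus does not describe its own start. Myo10 and Mllt6, unlike Esrrb, had their strong peak at the 5′ end, at 66.9 and 56.5.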

How the data were processed

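H3K4me3 ChIP-seq was measured in 2 biological replicates, and the files are peak lists: 86781 and 83750 mm10 peaks in the replicates, 98928 in the pooled list and 62128 in the replicated list, and 58875, 52424 and 64140 mm9 regions in replicate 1, replicate 2 and the pooled list. The deposited signal is a ratio per peak (ChIP over control on mm10), with the deposited −log10 of a p-value and a q-value on mm10, and on mm9 a p-value and a q-value as deposited. The sources used here name no aligner or peak caller, and depth is unknown, so no counting interval can be given and a missing peak is one that did not pass the authors' threshold. Every peak of the replicated list is in the pooled list with the same edges and signal. The labels call the replicates biological and tie both to 1 donor of the line.

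Genes were taken from the GRCm38.p6 table with strand from GENCODE vM1, for 18392 by name and 2184 by synonym. Starts on mm9 came from vM1. A start was marked when a peak lay within 1 kb, and peaks less than 1 kb apart were joined. CpG classes used windows of 500 bp from 1300 bp before to 200 bp after a start: high, a ratio over 0.75 with GC over 55%; low, no window over 0.48. Python 3.11.15, numpy 2.4.6, pandas 2.3.3 and matplotlib 3.10.9 were used, and the interval code was tested on simulated data. The members and lists were chosen with earlier results of these data known. Named were the 6 genes, the relatives (1 listed gene is not reported here), and of each other list the 2 widest, the 2 highest and every gene without a peak at its 5′ end, and the 2 genes most like each member. Alternatives were each replicate's list, the pooled list, a q-value under 1e-05, other windows, joining and flanks. Promoter sequences came from RefSeq for 4 of the 6 genes.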

Additional observations from a re-analysis of the deposited data

How the results depend on the processing

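The number of peaks over the 6 genes depended on the list: 55 in the replicated list, 84 in the pooled list, and 86 to 90 when 1 replicate was left out. It was 48 at a q-value under 1e-05, 42 without flanks and 64 with flanks of 20 kb. Counts of genes moved less: 4 to 5 marked at the 5′ end, 6 marked at any start throughout, 14 to 15 of the starts, and 2 (peaks joined up to 3 kb) to 4 (without flanks, and in replicate 2) among the widest 5%. The Esrrb domain was 25468 bp without joining and 48908 bp in the pooled list, and the widest Tbx3 domain was 19383 bp with joining up to 3 kb. The cause was not tested. Depth is unknown, so its limit on weak peaks cannot be given. No paired analysis was possible because there is 1 group.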

Other observations

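A search made after the Esrrb values were seen asked how often a strong peak lies far inside a gene. Over the 14745 genes with a peak summit in the gene body, the strongest such summit lay a median of 426 bp from the 5′ end, and 1.46% of genes had it farther away than Esrrb. Genes shorter than 109.3 kb could not have it farther away, and gene length was not taken into account. A summit more than 50 kb inside with a signal of 69.4 or more was found in 5 genes: Esrrb, G3bp2 (74.6 at 54.5 kb), Kcnn2 (72.9 at 290.2 kb), Pde4dip (69.7 at 120.9 kb) and Slc2a3 (70.8 at 60.3 kb). The signal cutoff was Esrrb's own value, so Esrrb was included by construction. Esrrb was the only one of these 5 with no peak of the replicated list at its 5′ end; the others had 58.95, 14.1, 22.7 and 27.6 there.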
